A study of Mus musculus with 6 samples.

Results

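The genes examined encode the eukaryotic translation initiation factors, called eIFs, together with the kinases that phosphorylate eIF2 and the repressors that hold eIF4E. They were chosen by name: protein-coding genes of GENCODE release M21 whose symbol starts with Eif and a digit from 1 to 6, without Eif5a. The rule gave 54 of the 48440 genes in the table of counts. Of these, 52 had enough reads to pass the filter on low counts and were tested.

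Initiation begins when eIF2, carrying GTP, brings the initiator tRNA to the small ribosomal subunit, which also holds eIF1, eIF1A and the large scaffold eIF3. The cap-binding complex eIF4F, made of eIF4E, the helicase eIF4A and the scaffold eIF4G, recruits the messenger RNA, and eIF5 and eIF5B complete the joining of the large subunit. After each round eIF2 is recharged by the exchange factor eIF2B, and phosphorylation of the eIF2 alpha subunit by stress kinases blocks that step. T cells that are stimulated through their receptor grow before they divide, and their rate of protein synthesis is known to rise.

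RNA was sequenced from primary CD4+ T cells of wild-type mice, taken from spleen and lymph node. All cells had first been activated for 3 days with plate-bound antibodies to CD3, part of the T cell receptor, and to its costimulatory partner CD28, and had then grown for 5 days in interleukin 2. The stimulated group met these antibodies again for 4 hours, and the unstimulated group stayed at rest, with 3 libraries in each. The study calls the libraries biological replicates but names no mice, so p-values measure the spread between these libraries only. The cells are a culture of previously activated T cells, not naive ones.

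The 6 libraries held 29897720 to 30252923 counted reads, so depth was nearly equal. Levels are given in CPM, read counts scaled to library depth times a normalisation factor for each library (TMM). The factors were 0.9359, 0.9532 and 0.9694 in the stimulated libraries, and 1.039, 1.05 and 1.059 in the unstimulated ones. Levels thus differ from those scaled by depth alone. Each change is given as a log2 fold change with its standard error (SE), where a positive value means higher in stimulated cells. The markers of CD4+ T cells were all read, summing to 1391 to 1472 CPM in the stimulated libraries and 3323 to 3450.4 CPM in the unstimulated ones. Summed B cell markers were 729 to 1280.4 CPM in stimulated and 1402 to 2858 CPM in unstimulated libraries. Most of these sums came from Ighm, which alone averaged 963 CPM in stimulated and 1985 CPM in unstimulated libraries. CD8+ T cell markers summed to 20.7 to 25.8 CPM in stimulated and 20.9 to 24.8 CPM in unstimulated libraries. NK cell markers summed to 61.1 to 113 CPM in stimulated and 13.4 to 26.0 CPM in unstimulated ones, where Eomes alone averaged 82.6 and 8.03 CPM. Myeloid markers summed to 3.00 to 3.69 CPM in stimulated and 6.38 to 8.27 CPM in unstimulated libraries. Dendritic cell markers, with Siglech at 0, summed to 4.22 to 5.72 CPM in stimulated and 1.19 to 2.00 CPM in unstimulated libraries. Erythroid markers, with Hba-a2 at 0, summed to 0.248 to 0.827 CPM in stimulated and 0.605 to 1.92 CPM in unstimulated libraries. The stromal and endothelial list summed to 46.0 to 59.2 CPM in stimulated and 177 to 196 CPM in unstimulated libraries, mostly from Pecam1. The part of these other cells in the changes below was not tested. In such bulk samples fewer cells of a type and less RNA per cell cannot be told apart.

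Most initiation factor genes were higher after restimulation. Of the 52 tested, 40 rose, 10 fell and 2, Eif3e and Eif3k, were not called. The test was edgeR's quasi-likelihood fit with a threshold of 0.05 on p-values adjusted by Benjamini-Hochberg over 13314 genes. The 40 that rose were 76.9% of the members tested, beside 38.4% of all genes tested, and the 10 that fell were 19.2%, beside 39.1% of all genes. These shares of all genes are the background for the counts by role and list below. The median change of the members was 1.05 on the log2 scale, against -0.04 over all genes. The members' reads together made up 1.73%, 1.76% and 1.70% of all counts in the stimulated libraries, and 0.974%, 0.969% and 0.970% in the unstimulated ones.

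Because so many genes moved, changes were also tested against a size of 2-fold with glmTreat. By that test 21 members rose (40.4%, against 17.4% of all genes) and 2 fell, Eif2ak3 and Eif4e3 (3.85%, against 18.2% of all genes). The stimulated and unstimulated libraries did not overlap for 49 of the 52 members, or 94.2%, where 79.8% of all tested genes did not overlap. Scaling by library size alone moved the median of all genes by -0.14, and small changes turn on that choice. No RNA content per cell was measured, and every change is relative to the rest of the library.

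**Figure D1:**
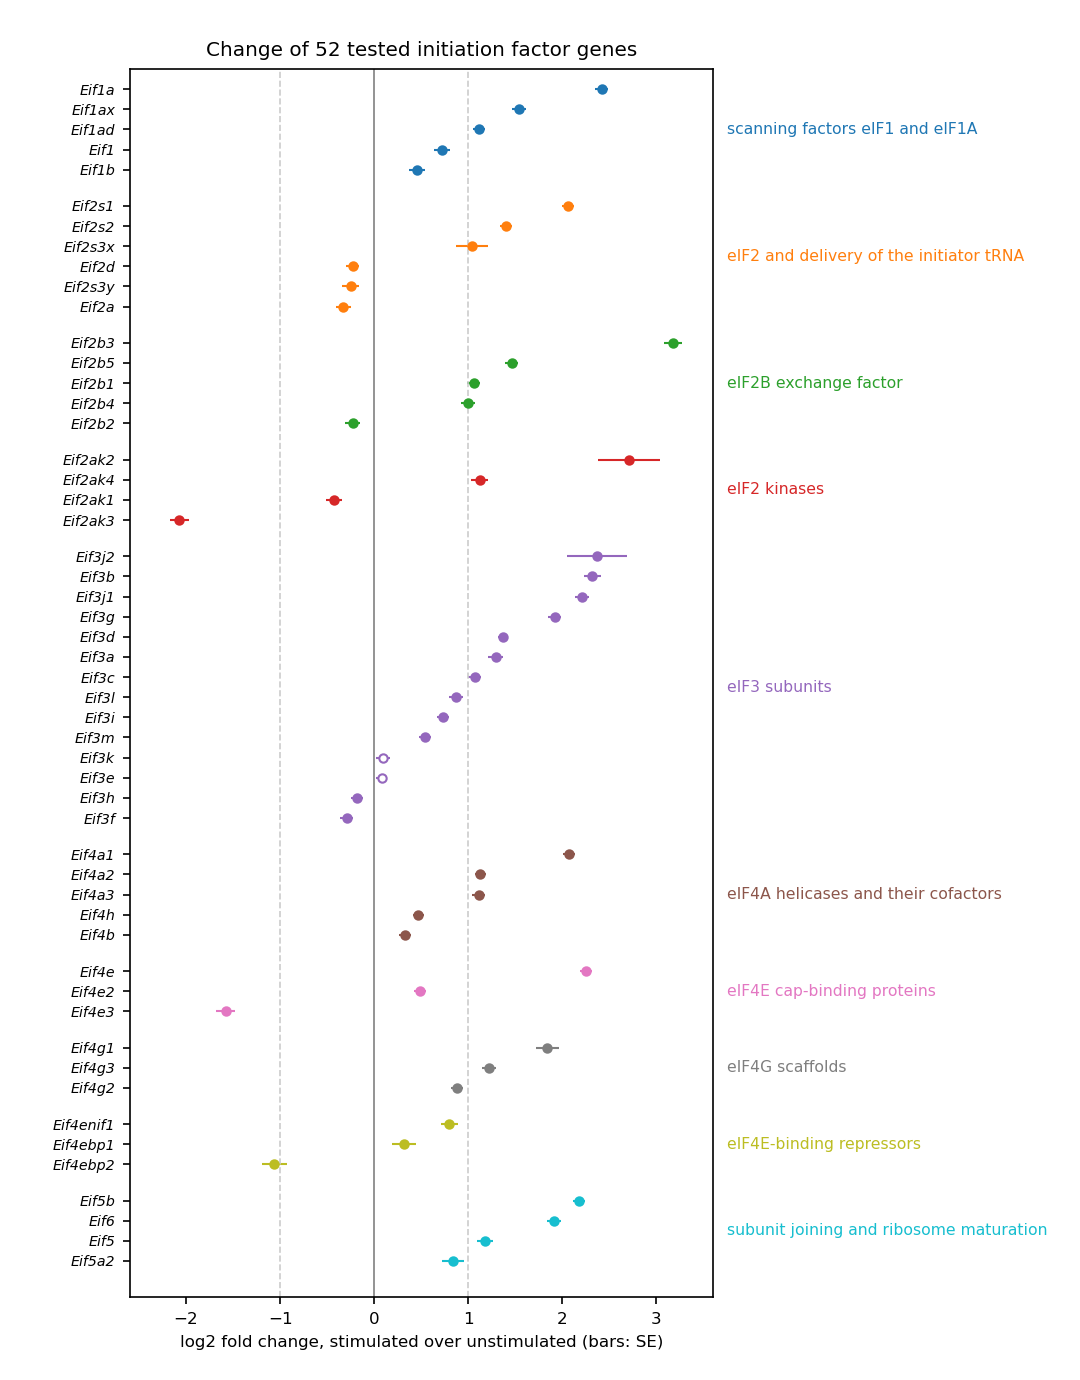
Log2 fold change of stimulated over unstimulated cells (x axis) for the 52 tested genes, grouped by role, with bars for the SE. Filled points passed the test, open points did not, and dashed lines mark a 2-fold change. Values run from -2.07 for Eif2ak3 to 3.18 for Eif2b3, with most points to the right of 0.

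The cap-binding complex rose in all its main subunits. Eif4e, which binds the cap, had 307, 311 and 292 CPM in the stimulated libraries, against 63.8, 62.2 and 64.6 CPM in the unstimulated ones. Eif4a1, the main helicase, had 2156, 2140.4 and 2013 CPM in stimulated libraries, against 536, 481 and 487 CPM in unstimulated ones. Eif4g1, the scaffold that bridges eIF4E to eIF3, had 1229, 1178 and 1089.8 CPM with stimulation, against 375, 329 and 270.1 CPM without. Each stimulated library lay far above every unstimulated one for these genes. The log2 fold changes were 2.25 (SE 0.064) for Eif4e, 2.07 (SE 0.063) for Eif4a1 and 1.84 (SE 0.12) for Eif4g1, with adjusted p between 8.2e-09 and 9.4e-07 in edgeR.

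In the GRCm38 annotation Eif4e (ENSMUSG00000028156) lies on chromosome 3 from 138526179 to 138559696. Eif4a1 (ENSMUSG00000059796) lies on chromosome 11 from 69666936 to 69672423, where 6.62% of its exon bases are shared with small nucleolar RNA genes of the same strand. Eif4g1 (ENSMUSG00000045983) lies on chromosome 16 from 20668313 to 20692884. Per kilobase of merged exon, Eif4a1 had the highest level of all members in stimulated cells, at 485 CPM per kilobase, against 116 in unstimulated cells, where Eif3h was highest at 366. On that scale Eif4g1 stood at 159.7 in stimulated and 44.4 in unstimulated cells, and Eif4e at 50.4 in stimulated and 10.6 in unstimulated cells.

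The promoters of these 3 subunit genes are shown because each holds the letters CACGTG, the E-box to which dimers of MYC and MAX are known to bind. The windows run from 250 bases before to 50 bases after a start site of the gene, and come from RefSeq in build GRCm38.p6. They are chr3:138527018-138527317 on the plus strand (1 of 2 listed starts), chr11:69672374-69672673 on the minus strand and chr16:20672477-20672776 on the plus strand. Capitals mark each CACGTG, and the sequence is written along the strand of the gene.
Eif4e: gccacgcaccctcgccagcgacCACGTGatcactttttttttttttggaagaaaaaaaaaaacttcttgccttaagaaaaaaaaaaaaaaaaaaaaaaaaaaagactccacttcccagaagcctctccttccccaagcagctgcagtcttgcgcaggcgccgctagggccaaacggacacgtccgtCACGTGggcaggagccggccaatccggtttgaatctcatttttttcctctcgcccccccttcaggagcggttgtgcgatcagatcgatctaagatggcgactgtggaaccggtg
Eif4a1: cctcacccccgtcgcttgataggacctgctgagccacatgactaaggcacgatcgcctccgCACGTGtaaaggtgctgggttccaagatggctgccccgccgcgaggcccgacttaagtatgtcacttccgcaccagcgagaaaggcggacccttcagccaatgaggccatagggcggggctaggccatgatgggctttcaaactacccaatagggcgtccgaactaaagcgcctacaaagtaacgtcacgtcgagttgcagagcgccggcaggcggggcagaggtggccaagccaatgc
Eif4g1: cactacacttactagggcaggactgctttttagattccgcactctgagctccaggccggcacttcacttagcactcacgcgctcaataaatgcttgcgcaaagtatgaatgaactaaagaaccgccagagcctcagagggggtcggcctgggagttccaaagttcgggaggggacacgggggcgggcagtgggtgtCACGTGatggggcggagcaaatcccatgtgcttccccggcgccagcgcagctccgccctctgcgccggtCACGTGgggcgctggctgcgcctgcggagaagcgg

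The E-box stood in the windows of 9 of the 42 members with a promoter in the table, or 21.4%. Among all 27025 genes with a window the share was 8.09%, and among the 9663 tested genes with one it was 11.9%. Of the 9 members, 7 rose (Eif4e, Eif4a1, Eif4g1, Eif4h, Eif3a, Eif1b and Eif5a2), Eif3f fell and Eif3k did not pass. These 7 were 77.8% of the members with the motif, and 78.6% of all 42 members with a window rose, a nearly equal share. Of the tested genes that rose, 14.2% held the motif, against 10.6% of those that fell and 9.95% of those not called. CACGTG reads the same on both strands. TGATGCAA, the amino acid response element, and TGACGTCA, the cAMP response element, were searched on both strands and were in none of the 42 members. Of all genes 1.03% and 2.03% held them, and of the tested genes 0.755% and 3.69%. At shares this low, absence from 42 members says little.

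Transcripts of the MYC network moved in the same libraries. Myc had 1359, 1314 and 1348 CPM in stimulated libraries, against 195, 159 and 146 CPM in unstimulated ones. Its partner Max averaged 173 ± 15.3 CPM in stimulated and 86.8 ± 3.25 CPM in unstimulated cells (SD, n = 3 each). Mxd4, which competes with MYC for MAX, fell to 4.19 ± 0.818 CPM in stimulated cells, against 189.5 ± 10.9 CPM in unstimulated cells. Of the 7 network genes listed, 4 rose, 2 fell and 1 was not called in edgeR, with a median of 0.44. The shares were 57.1% that rose and 28.6% that fell, beside 38.4% and 39.1% of all genes tested. The other listed competitors of MYC split: Mxd1 and Mnt were up by 1.18 and 0.44, and Mxi1 was down by 0.71 (log2 fold change -0.71). The part of the network genes in the changes of the initiation factors was not tested.

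The other members of the eIF4 families rose less or fell. Eif4a2, the second helicase gene, averaged 638 ± 36.4 CPM in stimulated and 292 ± 4.59 CPM in unstimulated cells. Of its exon bases, 13.3% are shared with small RNA genes of the same strand and with Rfc4 on the other. Eif4a3, the helicase of the exon junction complex, averaged 214 ± 4.22 CPM in stimulated and 99.5 ± 4.56 CPM in unstimulated cells. The helicase cofactors Eif4b and Eif4h rose by only 0.33 (SE 0.063) and 0.47 (SE 0.060) on the log2 scale. Among the scaffolds, Eif4g3 rose by 1.22 (SE 0.076), and Eif4g2, which lacks the eIF4E-binding site, by 0.88 (SE 0.065). All 5 genes of the helicase group and all 3 scaffolds thus rose in edgeR.

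The eIF4E relatives went separate ways. Eif4e2, which binds the cap without recruiting eIF4G, averaged 134 ± 4.5 CPM in stimulated and 95.5 ± 2.04 CPM in unstimulated cells (log2 fold change 0.49, SE 0.062). Eif4e3 had 18.3, 14.8 and 19.4 CPM in the stimulated libraries, against 53.1, 51.0 and 52.8 CPM in the unstimulated ones. Its groups were far apart, and the fall was 1.58 on the log2 scale (log2 fold change -1.58, SE 0.10, edgeR, adjusted p = 8.2e-07). Of its exon bases, 14.8% are shared with a protein-coding gene on the same strand, Gm20696, so that its reads are uncertain to that degree. Eif4e1b had 0 reads in all 6 libraries. Scaled by depth alone, this allows at most 0.0992 to 0.1 CPM per library (3 counts, counting error only).

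The repressors of eIF4E did not move together. Eif4ebp1, the 4E-BP best known as a target of mTORC1, had 27.0, 30.7 and 38.4 CPM in stimulated libraries, against 27.7, 24.7 and 24.8 CPM in unstimulated ones. The groups overlapped, since stimulated replicate 1 lay below unstimulated replicate 1. Its change of 0.32 (SE 0.13) just passed edgeR (adjusted p = 0.047). The call was lost with library size alone (adjusted p = 0.24), with limma-voom (adjusted p = 0.053), when genes under 1 CPM were dropped (adjusted p = 0.061) and without stimulated replicate 2 or 3 (adjusted p = 0.068 and 0.16) or unstimulated replicate 2 or 3 (adjusted p = 0.14 and 0.13), over a range of 0.0098 to 0.24 in all alternatives.

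Eif4ebp2, the second 4E-BP, had 64.8, 63.9 and 57.9 CPM in the stimulated libraries, against 149, 135 and 104 CPM in the unstimulated ones. All stimulated libraries were lower, and the log2 fold change was -1.06 (SE 0.13, edgeR, adjusted p = 6.2e-05). Eif4enif1, the transporter that carries eIF4E into the nucleus, had 207, 179.9 and 189.8 CPM in stimulated libraries, against 121, 109 and 102 CPM in unstimulated ones. It rose by 0.80 (SE 0.086). Eif4ebp3 was not tested: it had 5, 2 and 4 reads in stimulated libraries and 0, 0 and 4 reads in unstimulated ones, and 67.3% of its exon bases are shared with a longer gene of the same strand.

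**Figure D2:**
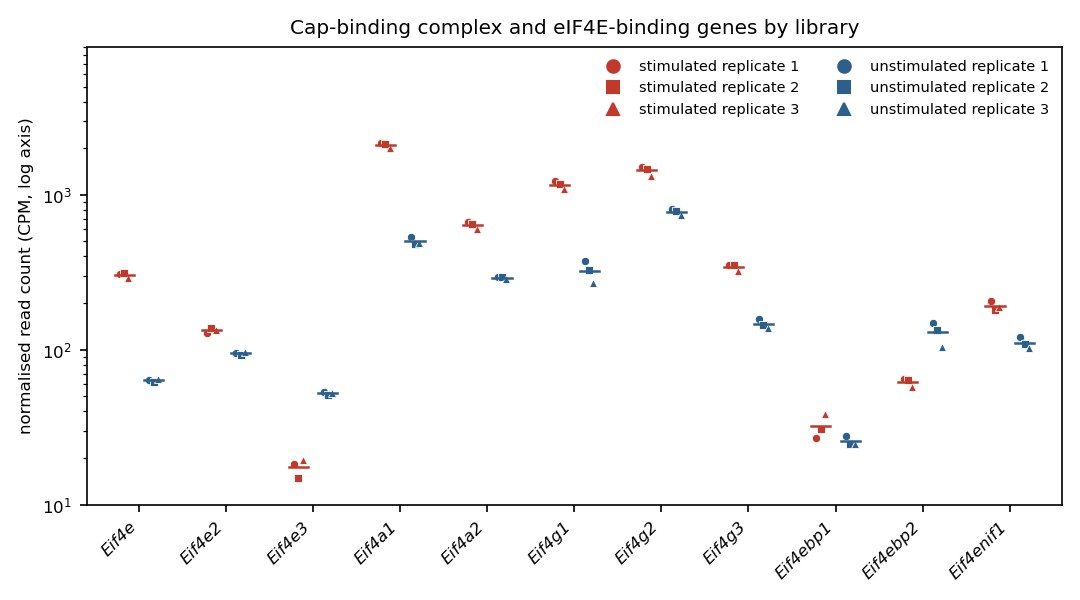
Normalised read count in CPM (log axis) of the genes of the cap-binding complex and of the eIF4E-binding proteins, 1 point per library, with a line at the mean of each group. Eif4e, Eif4a1 and Eif4g1 lie several-fold higher in stimulated cells, Eif4e3 and Eif4ebp2 lie lower, and the groups of Eif4ebp1 overlap.

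Ratios of related genes within a library do not depend on scaling, and 9 pairs were compared. In raw counts the log2 ratio of Eif4e to Eif4e3 was 4.07, 4.39 and 3.91 in stimulated libraries, against 0.26, 0.29 and 0.29 in unstimulated ones. Eif4e over Eif4e2 was 1.25, 1.17 and 1.12 in stimulated libraries, against -0.59, -0.58 and -0.59 in unstimulated ones. Eif4a1 over Eif4a2 averaged 1.72 in stimulated and 0.78 in unstimulated libraries. All these ratios leaned to the first gene after stimulation, a direction that depends on the order in which each pair is written.

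The ratio of Eif4ebp1 to Eif4ebp2 averaged -0.97 in stimulated and -2.32 in unstimulated libraries. Per kilobase, Eif4ebp1 was 1.35 times Eif4ebp2 in stimulated cells and 0.529 times in unstimulated cells. The differences of the 9 pairs ran from 0.26 for Eif1 over Eif1b to 3.84 for Eif4e over Eif4e3. No pair overlapped between groups, and each gave p = 0.10 in a two-sided exact permutation test (adjusted p = 0.10 over the 9 pairs), the smallest that 3 libraries against 3 allow. Of all single genes tested, 79.8% did not overlap either, and no share was taken for other pairs of genes.

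**Figure D3:**
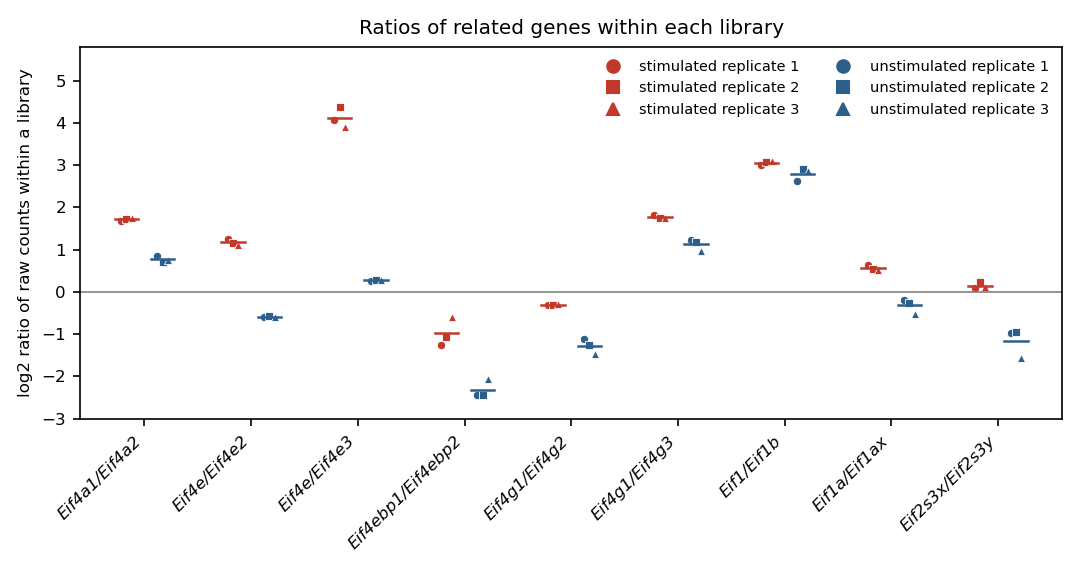
Log2 ratio of raw counts of 9 pairs of related genes within each library (y axis), 1 point per library, with a line at the mean of each group. The stimulated libraries lie above the unstimulated ones in each pair, by 3.84 for Eif4e over Eif4e3 and by 0.26 for Eif1 over Eif1b.

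Subunits of eIF2 rose unevenly. Eif2s1, the alpha subunit that the stress kinases phosphorylate, had 379, 395 and 388 CPM in stimulated libraries, against 91.2, 88.9 and 98.3 CPM in unstimulated ones. This was a rise of 2.06 (SE 0.067), with no overlap between groups. Eif2s2, the beta subunit, rose by 1.40 (SE 0.060). The gamma subunit, which binds the initiator tRNA, is encoded in the mouse by an X-linked and a Y-linked gene. Eif2s3x had 101, 99.1 and 84.6 CPM in stimulated libraries, against 55.7, 49.1 and 33.8 CPM in unstimulated ones, a rise of 1.04 (SE 0.17).

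Eif2s3y had 94.6, 84.3 and 78.6 CPM in stimulated libraries, against 109.9, 95.7 and 99.6 CPM in unstimulated ones. The stimulated libraries were all lower, if narrowly, with a log2 fold change of -0.25 (SE 0.088, edgeR, adjusted p = 0.030). The call was lost with RLE scaling (adjusted p = 0.051) and DESeq2 (adjusted p = 0.050), and without stimulated replicate 2 or 3 (adjusted p = 0.10 and 0.12) or unstimulated replicate 1 (adjusted p = 0.081), over a range of 0.0018 to 0.12. The X-linked and Y-linked genes thus changed place: their log2 ratio in raw counts was 0.10, 0.23 and 0.11 in stimulated libraries, against -0.98, -0.96 and -1.56 in unstimulated ones. The Y-linked gene is a close relative of the X-linked one, and reads common to both could not be assigned with certainty.

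Of the other proteins that can deliver the initiator tRNA, Eif2a had 95.5, 105 and 99.5 CPM in stimulated libraries, against 114, 127 and 136 CPM in unstimulated ones. Eif2d averaged 53.2 ± 1.35 CPM in stimulated and 62.5 ± 2.67 CPM in unstimulated cells (SD, n = 3 each). Both fell, with log2 fold changes of -0.33 (SE 0.081) and -0.23 (SE 0.065). In this group 3 genes rose and 3 fell in edgeR.

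Of the 5 subunit genes of the exchange factor eIF2B, which recharges eIF2 with GTP, 4 rose and 1 fell in edgeR. Eif2b3, the gamma subunit, had 97.8, 101 and 92.7 CPM in the stimulated libraries, against 11.8, 9.48 and 10.9 CPM in the unstimulated ones. This 9.03-fold rise (log2 fold change 3.18, SE 0.094, edgeR, adjusted p = 9.7e-09) was the largest of all members. The gene (ENSMUSG00000028683) lies on chromosome 4 from 117019402 to 117087306. Eif2b5, the catalytic epsilon subunit, rose by 1.46 (SE 0.065), and Eif2b1 and Eif2b4, the alpha and delta subunits, by 1.06 (SE 0.068) and 1.00 (SE 0.072).

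Eif2b2, the beta subunit, went the other way, with 51.2, 55.7 and 59.4 CPM in stimulated libraries, against 61.6, 63.5 and 69.4 CPM in unstimulated ones. The groups lay close together without overlap, and the fall of 0.23 (log2 fold change -0.23, SE 0.080) passed edgeR (adjusted p = 0.028). Without stimulated replicate 1 or 2 the call was lost (adjusted p = 0.11 and 0.077), as it was without unstimulated replicate 2 or 3 (adjusted p = 0.053 and 0.065), over a range of 0.0040 to 0.11. Per kilobase of merged exon the 5 subunit genes ran from 14.9 (Eif2b3) to 68.8 (Eif2b5) CPM per kilobase in stimulated cells, a ratio of 4.63. In unstimulated cells they ran from 1.65 (Eif2b3) to 34.4 (Eif2b2), a ratio of 20.9. On that scale Eif2b3, with 6520 bases of merged exon, was the lowest subunit gene in both groups. In CPM it was lowest in unstimulated cells only. Its mean in stimulated cells, 97.0 CPM, lay above those of Eif2b1 (68.3), Eif2b2 (55.4) and Eif2b4 (75.7) and below that of Eif2b5 (179).

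The 4 kinases of eIF2 each answer to another stress, and their transcripts divided 2 up and 2 down. Eif2ak3, which encodes PERK, the kinase of the endoplasmic reticulum, had 13.1, 11.0 and 10.4 CPM in stimulated libraries, against 45.4, 49.3 and 50.3 CPM in unstimulated ones. The fall of 2.07 on the log2 scale (log2 fold change -2.07, SE 0.10, edgeR, adjusted p = 1.4e-07) was the deepest of all members. The gene (ENSMUSG00000031668) lies on chromosome 6 from 70844515 to 70905245, and 8.05% of its exon bases are shared with an unverified transcript on the other strand. Eif2ak1, which encodes the haem-regulated kinase HRI, had 62.2, 62.6 and 52.5 CPM in stimulated libraries, against 77.8, 85.0 and 76.1 CPM in unstimulated ones, a log2 fold change of -0.43 (SE 0.087). It shares 11.6% of its exon bases with Ankrd61 and Aimp2 on the other strand.

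Eif2ak4, which encodes the amino acid sensor GCN2, had 41.4, 43.4 and 42.0 CPM in stimulated libraries, against 21, 20.3 and 17.2 CPM in unstimulated ones. It rose by 1.12 (SE 0.091). Eif2ak2, which encodes PKR, the kinase that binds double-stranded RNA, had 158, 87.2 and 92.7 CPM in stimulated libraries, against 22.3, 17.4 and 11.6 CPM in unstimulated ones. Its rise of 2.71 (SE 0.33, edgeR, adjusted p = 0.00025) had the largest SE of the tested members, and stimulated replicate 1 stood well above the other stimulated libraries. Without that library the change was 2.40 (adjusted p = 0.00017, over a range of 1.2e-11 to 0.0051 in all alternatives). The gene (ENSMUSG00000024079) lies on chromosome 17 from 78852564 to 78882573.

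PKR is known as an interferon-stimulated gene, and other such genes were read beside it. All 15 on the list rose, beside 38.4% of all genes tested, with a median of 4.93. With no filter on low counts 14 were called, and 14 with the replicate number as a block. In all 15 the highest stimulated value lay in stimulated replicate 1. In the other lists it lay there for 9 of 17 eIF2 phosphorylation genes, 8 of 25 cap-binding regulators and 7 of 15 elongation and termination genes. The same held for 4 of 7 MYC network genes, 3 of 6 scanning and reinitiation factors and 2 of 3 mitochondrial initiation genes. No share over all genes was taken. Isg15, a ubiquitin-like modifier, had 501, 261 and 349 CPM in stimulated libraries, against 3.79, 2.56 and 3.52 CPM in unstimulated ones. Oas2, a sensor of double-stranded RNA, and Bst2, a membrane protein that tethers virus particles, rose by 4.93 (SE 0.22) and 2.42 (SE 0.16). Whether the change of Eif2ak2 belongs with these genes was not tested.

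The start of Eif2ak2 is shown for its match to GAAANNGAA, the core of the element through which interferon is known to act. The window is chr17:78882523-78882822 on the minus strand, in build GRCm38.p6. The capitals hold 2 overlapping matches, both downstream of the annotated start.
Eif2ak2: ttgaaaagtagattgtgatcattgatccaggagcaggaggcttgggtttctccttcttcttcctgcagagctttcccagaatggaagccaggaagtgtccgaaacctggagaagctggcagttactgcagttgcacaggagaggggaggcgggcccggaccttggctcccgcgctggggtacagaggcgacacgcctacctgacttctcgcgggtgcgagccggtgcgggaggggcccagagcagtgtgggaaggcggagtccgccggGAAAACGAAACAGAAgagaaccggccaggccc
Searched on both strands, these letters stood in 4 of the 42 members with a window, or 9.52%, and in 9.76% of all genes, so that the match is common. The other members with one were Eif2s1, Eif2s3x and Eif3a.

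**Figure D4:**
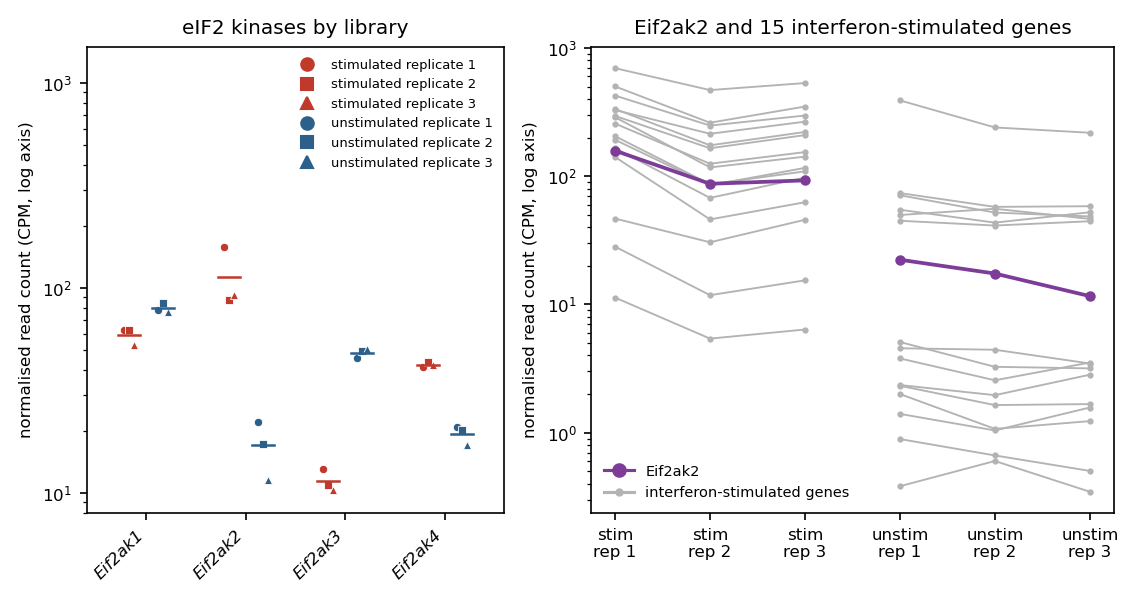
Left, normalised read count in CPM (log axis) of the 4 eIF2 kinase genes, 1 point per library, with a line at the group mean. Right, Eif2ak2 (purple) beside 15 interferon-stimulated genes (grey) in each library, where stimulated replicate 1 is the highest of the stimulated libraries for every line.

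Of 17 listed genes that regulate, read or reverse the phosphorylation of eIF2, 8 rose, 7 fell and 2 were not called, with a median of 0.25. The shares of 47.1% that rose and 41.2% that fell lay near those of all genes tested, 38.4% and 39.1%. Asns and Nars, enzymes under control of ATF4, rose by 4.06 (SE 0.11) and 1.70 (SE 0.063), and Atf4 itself, the factor whose translation rises when eIF2 is phosphorylated, averaged 335 ± 2.48 CPM in stimulated and 122 ± 7.10 CPM in unstimulated cells. Trib3, a pseudokinase that restrains ATF4, fell to 3.79 ± 0.0921 CPM in stimulated cells, against 33.5 ± 8.10 CPM in unstimulated cells. Of the other genes listed as readers, Atf3 and Chac1 rose by 4.79 (SE 0.53) and 1.75 (SE 0.25). Ddit3 and Sesn2 fell (log2 fold changes -0.91 and -0.94, SE 0.10 and 0.088), so the readers moved both ways. Prkra, an activator of PKR, and Ppp1ca, a catalytic subunit of the phosphatase, fell by 2.35 and 1.34 (log2 fold changes -2.35 and -1.34, SE 0.15 and 0.072). Gcn1, the partner through which GCN2 senses stalled ribosomes, averaged 305 ± 6.58 CPM in stimulated and 95.3 ± 10.8 CPM in unstimulated cells.

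Subunits of eIF3, the largest of the factors, moved unevenly. Of 14 genes, 10 rose, 2 fell and 2 did not pass, with a median of 0.97. The 5 subunits a, b, c, g and i, which form the core of eIF3 in budding yeast, all rose, with a median of 1.29. Eif3b rose most among them, to 732 ± 11.8 CPM in stimulated cells, against 146 ± 17.6 CPM in unstimulated cells (SD, n = 3 each, log2 fold change 2.32, SE 0.090). Eif3g rose by 1.92 (SE 0.069), Eif3a by 1.29 (SE 0.080), Eif3c by 1.07 (SE 0.069) and Eif3i by 0.73 (SE 0.063).

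The 7 other subunits, d, e, f, h, k, l and m, had a median of 0.09, and 3 rose, 2 fell and 2 did not pass. Eif3d, which can itself bind the cap, rose by 1.37 (SE 0.058), but 43.3% of its exon bases are shared with an antisense gene, and strand use in the counting is not given in the sources used here. Eif3l and Eif3m rose by 0.87 (SE 0.072) and 0.54 (SE 0.060). Eif3f, a subunit of the outer part of the complex, had 515, 524 and 506 CPM in stimulated libraries, against 580.3, 620.5 and 686 CPM in unstimulated ones. All stimulated libraries were lower (log2 fold change -0.29, SE 0.070, edgeR, adjusted p = 0.0045).

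Eif3h, another outer subunit, averaged 519 ± 15.4 CPM in stimulated and 589.8 ± 36.1 CPM in unstimulated cells, a log2 fold change of -0.18 (SE 0.064, edgeR, adjusted p = 0.026). That call did not hold without stimulated replicate 1 or 3 (adjusted p = 0.070 and 0.088) or unstimulated replicate 2 (adjusted p = 0.073), over a range of 0.0018 to 0.088. Eif3e had 486, 474 and 444 CPM in stimulated libraries, against 442, 443 and 444 CPM in unstimulated ones, a difference of 0.08 (SE 0.059) that is -0.06 with library size alone. Eif3k differed by 0.09 (SE 0.075), or -0.05 with library size alone.

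The division into core and other subunits was drawn after the values were seen and is given with no test. Averaged per kilobase of merged exon, the 5 core subunits stood at 1.08, 1.05 and 1.06 times the level of the 7 others in the stimulated libraries, against 0.457, 0.403 and 0.370 times in the unstimulated ones. The mean of the 5 was 151, 152 and 147 CPM per kilobase in stimulated libraries, against 56.7, 52.8 and 51.4 in unstimulated ones. That of the 7 was 139.9, 145 and 138 in stimulated libraries, against 124, 131 and 139 in unstimulated ones. The size of this ratio rests in part on Eif3h, the highest of the subunit genes. In an alternative chosen after the data were seen that left Eif3h out, the ratio was 1.37, 1.34 and 1.35 in stimulated libraries, against 0.647, 0.577 and 0.527 in unstimulated ones. With medians over subunits in place of means, also chosen after the data were seen, it was 1.56, 1.5 and 1.63 in stimulated libraries, against 0.629, 0.513 and 0.466 in unstimulated ones. Over these 12 genes the highest subunit was 4.63 times the lowest in stimulated cells and 11.5 times in unstimulated cells.

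The loosely bound subunit j is encoded by Eif3j1 and by Eif3j2, a close copy on chromosome 18 with a single exon. Eif3j1 averaged 161 ± 6.09 CPM in stimulated and 35.0 ± 2.11 CPM in unstimulated cells (log2 fold change 2.21, SE 0.073). Of its exon bases, 20.15% are shared with other genes, mostly with Spg11 on the other strand. Eif3j2 had 2.09, 1.79 and 1.58 CPM in stimulated libraries, against 0.477, 0.348 and 0.220 CPM in unstimulated ones, a change of 2.37 (SE 0.32) on few reads. Reads of the copy cannot be assigned with certainty.

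**Figure D5:**
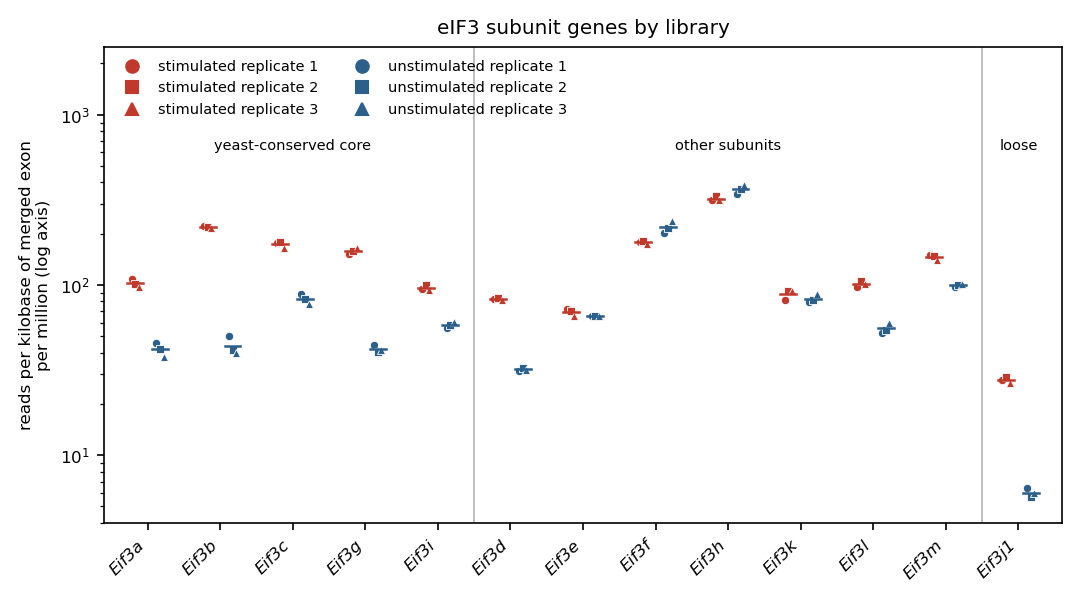
Level of each eIF3 subunit gene other than Eif3j2 in CPM per kilobase of merged exon (log axis), 1 point per library, with a line at the group mean. The 5 subunits at the left lie higher in stimulated cells, whereas the groups of Eif3e and Eif3k overlap and Eif3f and Eif3h lie slightly lower.

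All 5 genes of the eIF1 and eIF1A group rose. The small proteins eIF1 and eIF1A set the fidelity of start codon choice during scanning. Eif1a had 262, 255 and 253 CPM in stimulated libraries, against 50.8, 47.2 and 45.6 CPM in unstimulated ones (log2 fold change 2.42, SE 0.070, edgeR, adjusted p = 8.5e-09), and its X-linked relative Eif1ax rose by 1.54 (SE 0.077). Eif1 averaged 552 ± 19.9 CPM in stimulated and 336 ± 34.7 CPM in unstimulated cells, a rise of 0.72 (SE 0.081), and Eif1b rose by 0.46 (SE 0.085). Eif1ad, named for an eIF1A-like domain, rose by 1.11 (SE 0.064). It shares 15.3% of its exon bases with Banf1, and Eif1b shares 12.7% with an antisense gene, each on the other strand. Eif1 has 3 annotated pseudogenes of its name, with which reads can be shared.

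All 4 genes placed under subunit joining and ribosome maturation rose as well. Eif5b, the GTPase of subunit joining, which shares 16.9% of its exon bases with Rev1 on the other strand, had 417, 435 and 423 CPM in stimulated libraries, against 98.5, 91.4 and 92.2 CPM in unstimulated ones (log2 fold change 2.18, SE 0.064, edgeR, adjusted p = 9.6e-09). Eif5, which makes eIF2 hydrolyse its GTP at the start codon, had 516, 499 and 443 CPM in stimulated libraries, against 234, 212 and 199 CPM in unstimulated ones. Eif6, which keeps new large subunits from joining too early, had 273, 268 and 299 CPM in stimulated libraries, against 78.1, 72.9 and 72.7 CPM in unstimulated ones. None of these groups overlapped, and Eif5 and Eif6 rose by 1.18 (SE 0.085) and 1.91 (SE 0.073). Eif5a2, counted under this role though a relative of the elongation factor eIF5A, rose by 0.84 (SE 0.12) from a low level.

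Of 25 listed regulators of the cap-binding complex outside the eIF family, 14 rose, 8 fell and 3 were not called, with a median of 0.38. The shares were 56.0% that rose and 32.0% that fell, beside 38.4% and 39.1% of all genes tested. Pdcd4, an inhibitor of eIF4A, fell to 42.6 ± 5.10 CPM in stimulated cells, against 393 ± 13.3 CPM in unstimulated cells (log2 fold change -3.20, SE 0.098). Paip2, which strips the poly(A)-binding protein from messages, and Mknk2, a kinase of eIF4E, fell by 2.14 and 2.07 (log2 fold changes -2.14 and -2.07, SE 0.098 and 0.074). Pabpc4, a poly(A)-binding protein, the scanning helicase Dhx29 and the nuclear cap-binding subunit Ncbp2 rose by 2.30 (SE 0.064), 2.40 (SE 0.12) and 1.14 (SE 0.066). The count that fell was 5 without stimulated replicate 3 and without unstimulated replicate 2, and 11, with 12 that rose, under scaling by library size alone.

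Of 15 elongation and termination genes, 12 rose and 2 fell, with a median of 1.31. The shares were 80.0% and 13.3%, beside 38.4% and 39.1% of all genes tested. Eef1e1, a scaffold of the tRNA synthetase complex, rose by 3.48 (SE 0.077), Eif5a by 2.62 (SE 0.062) and the release factor Etf1 by 1.78 (SE 0.066). The genes that fell were the abundant elongation factors Eef2, at 4658 ± 142 CPM in stimulated and 6991 ± 480.4 CPM in unstimulated cells, and Eef1a1, at 13379 ± 813 CPM in stimulated and 15427 ± 252 CPM in unstimulated cells. Of 6 other scanning and reinitiation factors 5 rose (83.3%, beside 38.4% of all genes tested). Among them were Denr (1.78, SE 0.062), Bzw1 (1.30, SE 0.071) and Bzw2 (2.12, SE 0.093). Of the 3 mitochondrial initiation genes, Mtfmt rose by 1.05 (SE 0.095) and Mtif3 fell, with a log2 fold change of -0.51 (SE 0.087). Mtif2 rose by 0.21 (edgeR, adjusted p = 0.019), a call lost with library size alone (adjusted p = 0.37) and without unstimulated replicate 2 (adjusted p = 0.086), over a range of 0.011 to 0.37.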

How the data were processed

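The starting point was the authors' deposited table of raw read counts for 48440 Ensembl genes in 6 libraries. Build GRCm38 and the tools HTSeq, STAR 2.5.2a and DESeq2 are named, without roles, per the submitters' processing notes. The sources used here do not give the annotation release, strand setting or read filters. Per the labels' protocols, libraries were made with a TruSeq kit. Groups and replicate numbers came from the labels, which name no batch.

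GENCODE M21 (GRCm38) matched 48058 identifiers. edgeR 4.0.16 in R 4.3.3 was fitted to all libraries with TMM scaling, filterByExpr, robust dispersions and the quasi-likelihood test on group. The filter left 13314 genes with 99.9% of counts, and Benjamini-Hochberg adjustment ran over all of them at a threshold of 0.05. glmTreat tested against 2-fold. SEs came from the change and the F statistic. Levels per kilobase used merged exons of GENCODE, which pool all annotated transcripts of a gene. Comparisons between genes on that scale therefore depend on the annotation. Ratios of related genes were tested by exact permutation, with 0.5 added to each count. Pairs of libraries within a group differed by more than counting noise (dispersion index 8.84 to 35.2, where noise gives about 1).

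Members, roles and lists were chosen with earlier results of these data known. Values in every library were given by rule for all kinases and eIF4E-binding proteins, for 6 core factors, and for the called member with the largest rise and the deepest fall of each role. For the lists, the 3 rises and 3 falls with the smallest p were named. Gcn1, Atf3, Chac1, Ddit3, Sesn2 and Mnt were added after their values were seen. Alternatives were DESeq2 1.42.0, limma-voom (limma 3.58.1), RLE scaling, scaling by library size alone, keeping all genes with reads, keeping genes at 1 CPM or more in 3 libraries, a replicate block and leaving out each library. Figures were drawn with matplotlib 3.10.9 in Python 3.11.15.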

Additional observations from a re-analysis of the deposited data

How the results depend on the processing

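Of the 50 called members, 46 kept their call and direction in each of the 13 alternatives, and Eif2b2, Eif2s3y, Eif3h and Eif4ebp1 lost theirs in at least 1, as given with their values. Members that rose numbered 39 to 40 and members that fell 8 to 10 over all alternatives. On leaving out single libraries, 19 to 24 members rose and 2 to 3 fell beyond 2-fold. Over all genes 5113 rose and 5207 fell, with 4563 and 5818 by library size alone. The count of cap-binding regulators that fell was 5 to 8 and that of mitochondrial initiation genes that rose 1 to 2 when single libraries were left out. With library size alone these counts were 11 and 1, the second because the call of Mtif2 was lost. With the replicate number as a block, 40 members rose and 10 fell, and over all genes 5326 rose and 5516 fell. Deviations of same-numbered libraries correlated at 0.0845 to 0.38 and each library correlated best with its own number, a hint from the data only, since the labels do not say that a number marks a shared mouse. Differences of the ratios between related genes kept their sign without any single library. At this depth Eif4e1b and Eif4ebp3, with 0 and at most 5 reads in a library, could not be compared.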
